A study of Homo sapiens with 5 samples.

Results

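The genes described here are 36 factors and target genes of NF-κB, chosen by name, in clones of the ovarian cancer cell line CP70 that overexpress the DNA damage-binding protein DDB2. A gene was measured where a probe set of the array carries its symbol alone, and the probe set with the highest mean over the 5 arrays stood for it. This gave values for 34 of the 36 genes, while TRAF2 and BIRC3 had no such probe set in the annotation used here. Of the 34 genes, 25 passed the filter on low values and were tested, among 15396 genes tested in all. CP70 is a cisplatin-resistant derivative of the ovarian cancer line A2780. The arrays compared 3 clones stably transfected with a DDB2 expression plasmid (DDB2 clones 1, 2 and 3; pcDNA3.1-His-DDB2 in the methods) with 2 clones that carry the empty vector (vector clones 1 and 3), all grown in the same medium with no treatment named in the labels. Each sample is 1 clone on 1 array, so that differences between clones and an effect of DDB2 are separated only by these 3 and 2 clones. Vector clone 3 is so numbered in its title, and its source name gives it the number 2.

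NF-κB is a family of dimeric transcription factors built from RELA, REL, RELB and the p50 and p52 products of NFKB1 and NFKB2. IκB proteins such as IκBα, the product of NFKBIA, hold the dimers in the cytoplasm until the IKK kinase complex marks them for degradation. The freed dimers bind κB sites and switch on chemokines, cytokines, survival genes and their own inhibitors, and NFKBIA and TNFAIP3 thereby close a negative feedback loop. In ovarian cancer cells the pathway is known for driving CXCL8, IL6 and other secreted factors. NFKBIA is also named in the paper as a gene to whose promoter DDB2 binds, which makes its level in these clones of interest. The paper cites this from earlier work, for which it names another cell line, and describes no experiment of its own on NFKBIA in CP70. According to the paper, DDB2 represses the gene NEDD4L and affects NFKBIA transcription in the opposite direction.

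DDB2 itself, the check of the labels, had log2 values of 9.87, 9.0 and 9.14 in DDB2 clones 1, 2 and 3, against 7.84 and 7.25 in vector clones 1 and 3. All 3 DDB2 clones thus lay above both vector clones, at 3.45-fold on average (log2 fold change 1.79, standard error (SE) 0.337, unadjusted P = 0.00376 and adjusted p = 0.999 from limma). DDB2 thus passed a fold change over 2 with an unadjusted P under 0.05, the thresholds of the study. Values here are RMA values on the log2 scale, in which a difference of 1 is a doubling of the signal, and they are compared only within a gene, since probe sets differ in brightness. A value of 4.48, the median of the whole table, served as the filter level, and a gene was tested where at least 2 of the 5 arrays exceeded it. Array medians ran from 4.46 to 4.51. Of 6 epithelial markers, KRT8, KRT18, KRT19, EPCAM and PAX8 lay above that level on all 5 arrays and WT1 on 1. The summed log2 value of the 6 was 33.3 to 35.4 in DDB2 clones and 36.0 to 37.2 in vector clones, so that these did not overlap. KRT18, KRT19, EPCAM and WT1 had their highest value in a vector clone, and KRT8 and PAX8 in DDB2 clone 3. Of 6 leukocyte markers only CD68 exceeded the filter level, and PTPRC, the defining one, lay between 2.32 and 2.41. Of 5 fibroblast markers COL1A1, COL1A2 and PDGFRB exceeded the level on all arrays, and DCN and LUM on 1, that of DDB2 clone 1. The summed log2 value was 21.5 to 23.2 in DDB2 clones and 22 to 22.9 in vector clones for the leukocyte list, and 19.8 to 25.8 in DDB2 clones and 21.2 to 22.9 in vector clones for the fibroblast list. Of 3 endothelial markers VWF exceeded it on all arrays, CDH5 on 2 and PECAM1 on none. Their summed values, 11.9 to 12.0 in DDB2 clones and 12.1 to 12.7 in vector clones, did not overlap either. The part of these lists in the results was not tested.

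NF-κB acts through κB sites, which many of its target genes are known to carry near their start. In RefSeq windows of 250 bases before to 50 bases after a transcription start (build GRCh38.p14), 31 of the 36 genes had at least 1 window. The 10-letter κB motif, searched on both strands, stood in a window of 17 of these 31 genes (54.8%), and in 7.09% of all 27305 genes with a window. It was searched as GGGRNWYYCC, where R is A or G, W is A or T, Y is C or T, and N is any letter. The paper also names a short DDB2 element in the NFKBIA promoter and a variant of it in the promoter of NEDD4L, a ubiquitin ligase gene. Searched as TCCCCTTA, the NFKBIA form, and TCCCCTTT on both strands, the element stood in a window of 3 of the 31 genes (9.68%), against 3.77% of all genes. These 3 genes were PTGS2, IL1B and IKBKG. A match is a description of the letters and not a site shown to be bound. A κB site that departs from the searched letters is not counted, so a gene without a match may still carry one.

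**Figure D1:**
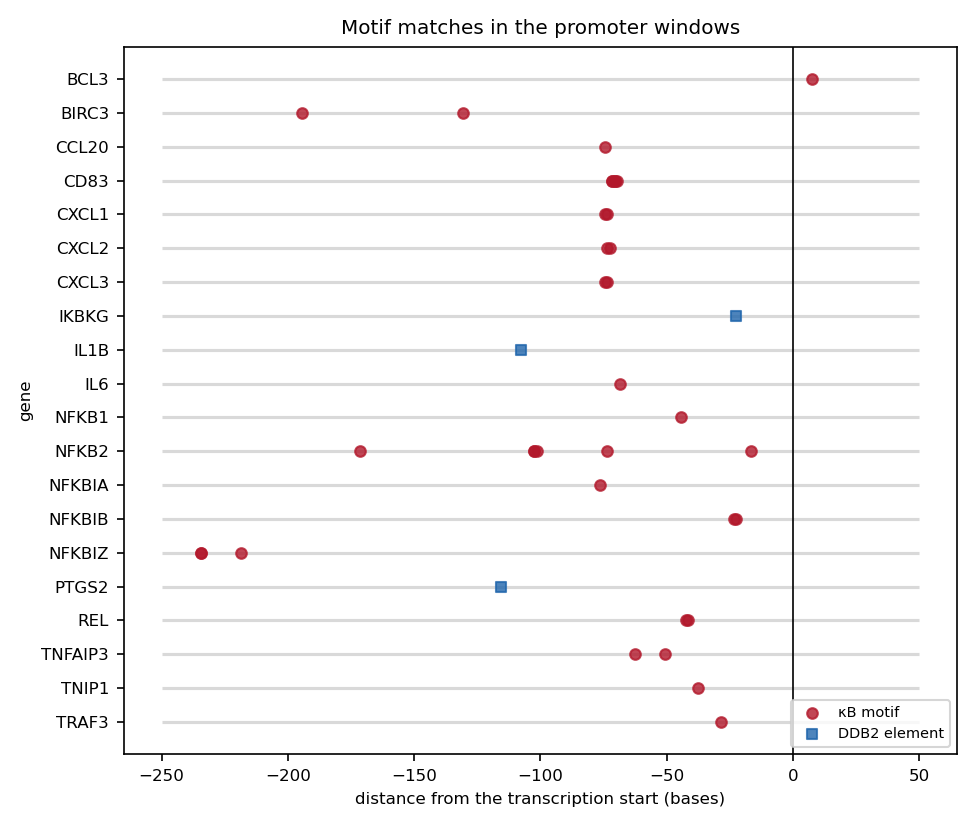
Positions of κB motif matches (circles) and DDB2 element matches (squares) in the promoter windows of the 20 genes with a match, against the distance from the transcription start in bases, with all windows of a gene on 1 line. Of the 17 genes with a κB match, only BCL3 has its match after the start.

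The stretches shown are those of the inhibitor gene that the paper links to DDB2, of the tested genes with the most negative log2 fold changes in DDB2 clones, TNFAIP3 and CD83, of 3 neighbouring chemokine genes with alike promoters, and of the gene with the widest spread over the clones. Each reads 5′ to 3′ on the strand of its gene, and capitals mark κB motif matches on either strand, or the DDB2 element in PTGS2. NFKBIA is shown from base -250 to -1 (chr14:35404750-35404999, minus strand).
NFKBIA: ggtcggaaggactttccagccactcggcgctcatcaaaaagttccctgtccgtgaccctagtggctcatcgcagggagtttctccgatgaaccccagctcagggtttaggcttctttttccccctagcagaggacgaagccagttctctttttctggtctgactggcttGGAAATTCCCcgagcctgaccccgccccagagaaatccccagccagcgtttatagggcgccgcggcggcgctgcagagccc
TNFAIP3 and CD83 are shown from base -100 to -1 (chr6:137867159-137867258 and chr6:14117672-14117771, both plus strand; CD83 has an earlier window with no match).
TNFAIP3: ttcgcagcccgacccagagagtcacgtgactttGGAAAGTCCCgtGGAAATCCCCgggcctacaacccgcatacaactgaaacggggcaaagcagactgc
CD83: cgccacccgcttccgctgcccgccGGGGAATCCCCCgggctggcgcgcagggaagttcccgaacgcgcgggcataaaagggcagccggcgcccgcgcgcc
CXCL1 (chr4:73869293-73869392, plus strand), CXCL2 (chr4:74099196-74099295, minus strand) and CXCL3 (chr4:74038690-74038789, minus strand) are shown over the same positions.
CXCL1: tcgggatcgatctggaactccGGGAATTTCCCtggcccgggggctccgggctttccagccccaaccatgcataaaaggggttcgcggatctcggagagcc
CXCL2: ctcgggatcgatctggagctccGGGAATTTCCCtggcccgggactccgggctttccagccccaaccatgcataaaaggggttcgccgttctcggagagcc
CXCL3: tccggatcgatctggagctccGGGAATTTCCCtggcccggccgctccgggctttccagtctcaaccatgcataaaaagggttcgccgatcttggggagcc
PTGS2 is shown from base -150 to -51 (chr1:186680474-186680573, minus strand).
PTGS2: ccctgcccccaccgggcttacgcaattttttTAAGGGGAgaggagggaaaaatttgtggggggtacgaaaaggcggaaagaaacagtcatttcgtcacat

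NFKBIA has 1 κB match, GGAAATTCCC, from base -81 to -72, and neither form of the DDB2 element lies in its window, which says nothing of the promoter further upstream. TNFAIP3 has 2 matches 2 bases apart, and CD83 has overlapping matches in a run of 12 bases. The 3 chemokine stretches share an unbroken run of 23 bases around the same κB match. PTGS2 has no κB match in its window, and the letters TAAGGGGA from base -119 to -112 are the reverse complement of the NFKBIA form of the element, which stood on either strand in 0.78% of all 35116 windows. The genes with the other form, IKBKG and IL1B, had log2 differences of 0.08 and -0.06 in DDB2 clones, IL1B under the filter level. Whether the element bears on the level of any of these genes was not tested.

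In the DDB2 clones, none of the 25 tested genes passed a fold change over 2 with an unadjusted P under 0.05 from limma, the study's thresholds, where 0.364% of all tested genes did. The log2 fold changes ran from -0.48 for TNFAIP3 to 0.32 for BIRC2, with a median of -0.06, beside -0.02 over all tested genes. In all, 9 of the 25 values were above 0 and 16 below, and 20 lay within 0.25 of 0, as did 80.2% of all tested genes. One gene, TNFAIP3, had an unadjusted P under 0.05 from limma, where 2.92% of all tested genes had one. No gene of the 25 passed an adjusted p under 0.05, and neither did any other gene on the array (0% of 15396, with a smallest adjusted p = 0.703 from limma). All 25 had an adjusted p = 0.999 from limma.

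**Figure D2:**
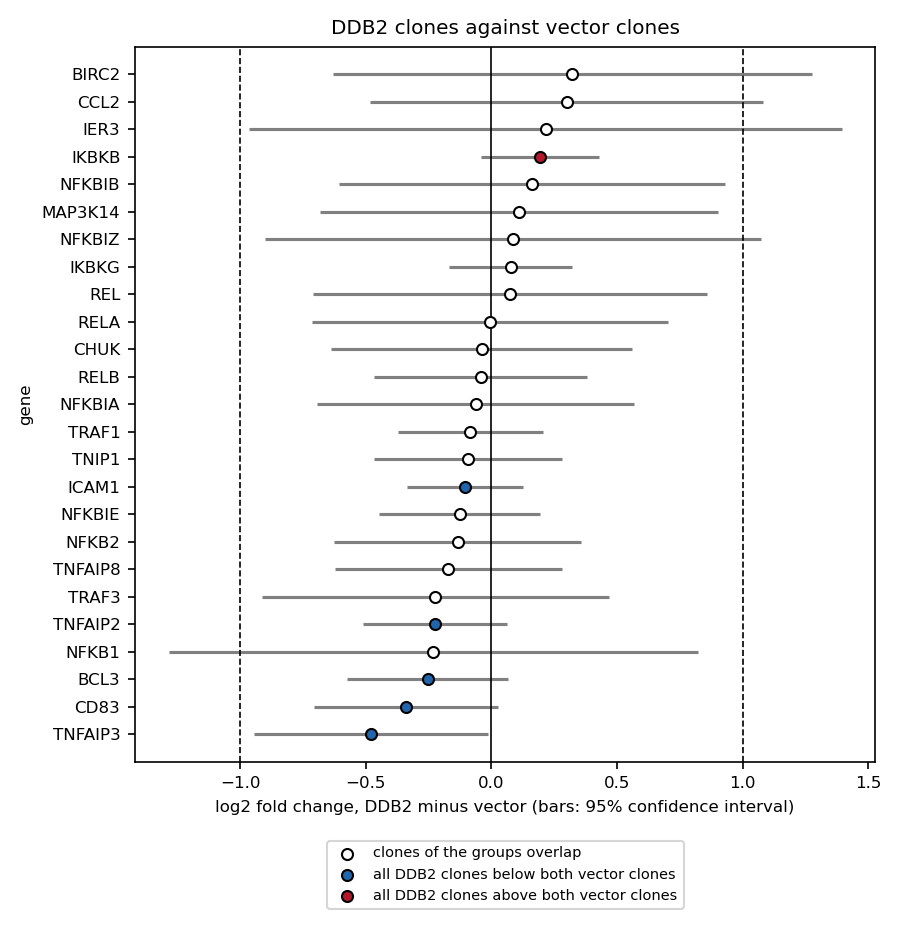
Log2 fold change, DDB2 minus vector clones, of the 25 tested genes with 95% confidence intervals from limma; dashed lines mark a fold change of 2. Filled points, TNFAIP3, CD83, BCL3, TNFAIP2 and ICAM1 below 0 and IKBKB above, are genes whose 3 DDB2 clones lie beyond both vector clones.

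The 95% confidence interval stayed inside a fold change of 2 in both directions for 20 of the 25 genes, and reached past it for NFKB1, NFKBIZ, BIRC2, IER3 and CCL2. In 5 of the 25 genes (20%) every DDB2 clone lay below both vector clones, as in 12.5% of all tested genes, and in 1 of 25 (4%) every DDB2 clone lay above, as in 5.93%. Both vector clones fell between the lowest and the highest DDB2 clone in 11 genes (29.2% of all genes), and the 3 DDB2 clones fell between the vector clones in NFKBIA and TRAF3 (11.2% of all genes). The 2 vector clones differed from each other by more than the size of the log2 fold change in 17 of the 25 genes, and in 67.7% of all genes. The median range over the 3 DDB2 clones was 0.41 on the log2 scale for these genes and 0.30 for all genes, and the median gap between the vector clones 0.17 and 0.20.

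**Figure D3:**
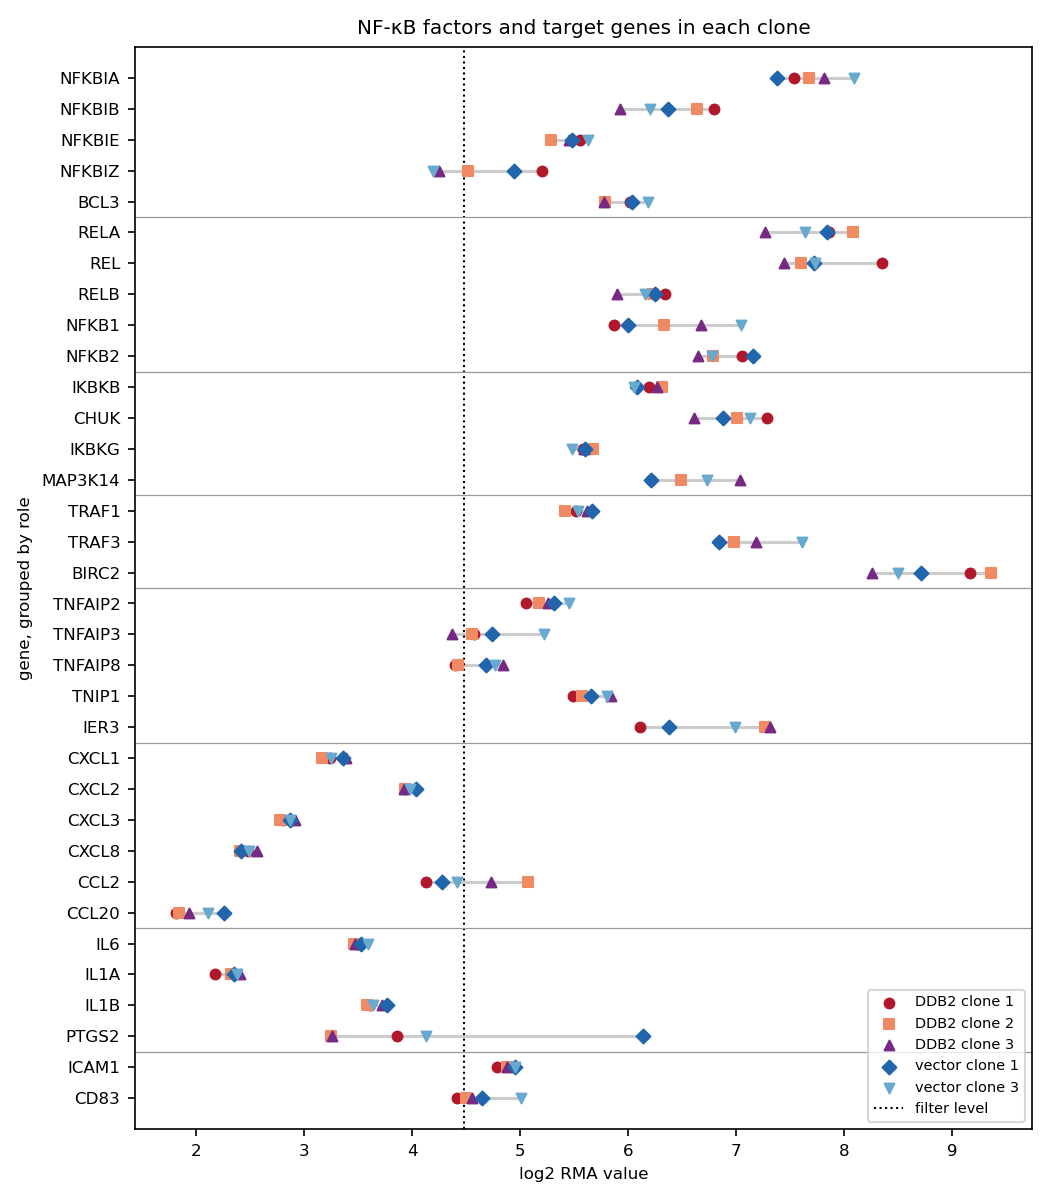
Log2 RMA values of the 34 measured genes in each clone, grouped by role, with the filter level of 4.48 as a dotted line. For most genes the DDB2 and vector clones intermingle, and CXCL1, CXCL2, CXCL3, CXCL8, CCL20, IL6, IL1A and IL1B lie under the filter level in every clone.

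Among the inhibitors, NFKBIA had values of 7.54, 7.67 and 7.82 in DDB2 clones 1, 2 and 3, against 7.38 and 8.09 in vector clones 1 and 3. The 3 DDB2 clones lay between the vector clones, which were the lowest and the highest of the 5. Its log2 fold change was -0.06 (SE 0.241, 95% confidence interval -0.69 to 0.57), and an exact two-sided permutation test over the clones gave p = 0.9, where 0.1 is the smallest value that 3 clones against 2 allow. Its sign depended on the vector clone used, at 0.29 without vector clone 3 and -0.42 without vector clone 1, and a fold change over 2 lies outside its interval.

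The other IκB proteins did not pass either. NFKBIB, which encodes IκBβ, ranged from 5.92 to 6.80 in DDB2 clones and from 6.21 to 6.37 in vector clones, and NFKBIE, which encodes IκBε, had a log2 fold change of -0.13 (SE 0.123). NFKBIZ, an inducible nuclear IκB protein that assists p50 at selected promoters, had values of 5.20, 4.52 and 4.25 in DDB2 clones 1, 2 and 3, against 4.94 and 4.19 in vector clones 1 and 3, with the clones numbered 1 highest in each group. BCL3, a nuclear IκB protein that works with p50 and p52 dimers, had 6.02, 5.79 and 5.78 in DDB2 clones, against 6.04 and 6.19 in vector clones. Every DDB2 clone was below both vector clones, DDB2 clone 1 only just, and the log2 fold change was -0.25 (SE 0.123).

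The subunits themselves varied among the clones of a group. RELA, the main activating subunit, had values of 7.86, 8.08 and 7.27 in DDB2 clones 1, 2 and 3, against 7.85 and 7.64 in vector clones, and a log2 fold change of -0.01 (SE 0.270). REL, a second activating subunit best known from lymphocytes, had 8.35, 7.60 and 7.44 in DDB2 clones, against 7.72 and 7.73 in vector clones. In REL as in RELA and RELB, the partner of p52 in the non-canonical pathway, DDB2 clone 3 was the lowest of the 5 clones. NFKB1, the gene of p105 and p50, had 5.87, 6.33 and 6.68 in DDB2 clones 1, 2 and 3, against 6.0 and 7.05 in vector clones 1 and 3. Its clones numbered 3 were the highest of each group, and its vector clones differed by 1.05, far more than the size of its log2 fold change of -0.23 (SE 0.403). That value was -0.75 without vector clone 1 and 0.29 without vector clone 3. NFKB2, the gene of p100 and p52, had a log2 fold change of -0.13 (SE 0.187).

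Of the kinases, IKBKB, the catalytic subunit that drives the canonical pathway, had values of 6.19, 6.31 and 6.27 in DDB2 clones 1, 2 and 3, against 6.08 and 6.05 in vector clones 1 and 3. It was the only one of the 25 genes with every DDB2 clone above both vector clones. Its log2 fold change was 0.19 (SE 0.0896), or 1.14-fold, which did not pass the test. CHUK, the catalytic subunit IKKα, had a log2 fold change of -0.04 (SE 0.229), and IKBKG, the regulatory subunit NEMO, one of 0.08 (SE 0.0935). MAP3K14, the NF-κB-inducing kinase of the non-canonical pathway, had 6.22, 6.49 and 7.04 in DDB2 clones, against 6.22 and 6.73 in vector clones, with DDB2 clone 3 the highest of the 5.

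TRAF and cIAP proteins carry the signal from TNF receptors. TRAF3, an adaptor that keeps MAP3K14 protein low, had 6.85, 6.98 and 7.19 in DDB2 clones 1, 2 and 3, against 6.84 and 7.61 in vector clones 1 and 3, so that the DDB2 clones lay between the vector clones, as for NFKBIA. TRAF1, an NF-κB target that modulates TNF receptor signaling, had a log2 fold change of -0.08 (SE 0.110). BIRC2, which encodes the ubiquitin ligase cIAP1, had 9.17, 9.37 and 8.26 in DDB2 clones, against 8.71 and 8.51 in vector clones. DDB2 clones 1 and 2 were above both vector clones and DDB2 clone 3 below both. The log2 fold change of BIRC2, 0.32 (SE 0.363), was 0.66 without DDB2 clone 3 and 0.11 without DDB2 clone 2.

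TNFAIP3, the gene of the ubiquitin-editing enzyme A20 that shuts off TNF signaling, had the most negative log2 fold change of the 25 genes. Its values were 4.57, 4.55 and 4.37 in DDB2 clones 1, 2 and 3, against 4.74 and 5.22 in vector clones 1 and 3. Every DDB2 clone was below both vector clones, and the mean was lower by a factor of 1.39 (log2 fold change -0.48, SE 0.178, 95% confidence interval -0.95 to -0.01). It was -0.72 without vector clone 1 and -0.24 without vector clone 3, and the unadjusted P was no longer under 0.05 without vector clone 3 or without any 1 of the DDB2 clones. The value in DDB2 clone 3 was under the filter level. In bulk RNA of a clone, fewer cells that express a gene and less RNA per cell cannot be told apart. TNFAIP2, which is induced by TNF, had a log2 fold change of -0.22 (SE 0.110), with DDB2 clones at 5.05, 5.17 and 5.26, against 5.31 and 5.46 in vector clones. TNIP1, a partner of A20, and TNFAIP8, an apoptosis regulator, had -0.09 (SE 0.143) and -0.17 (SE 0.172). IER3, an immediate early gene that acts on cell survival, had 6.11, 7.27 and 7.31 in DDB2 clones 1, 2 and 3, against 6.38 and 6.99 in vector clones 1 and 3. The clones numbered 1 were the lowest of each group. IER3 lies in the MHC region, and its 6 probe sets, 5 of them on alternative haplotypes, gave log2 fold changes from 0.18 to 0.22.

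**Figure D4:**
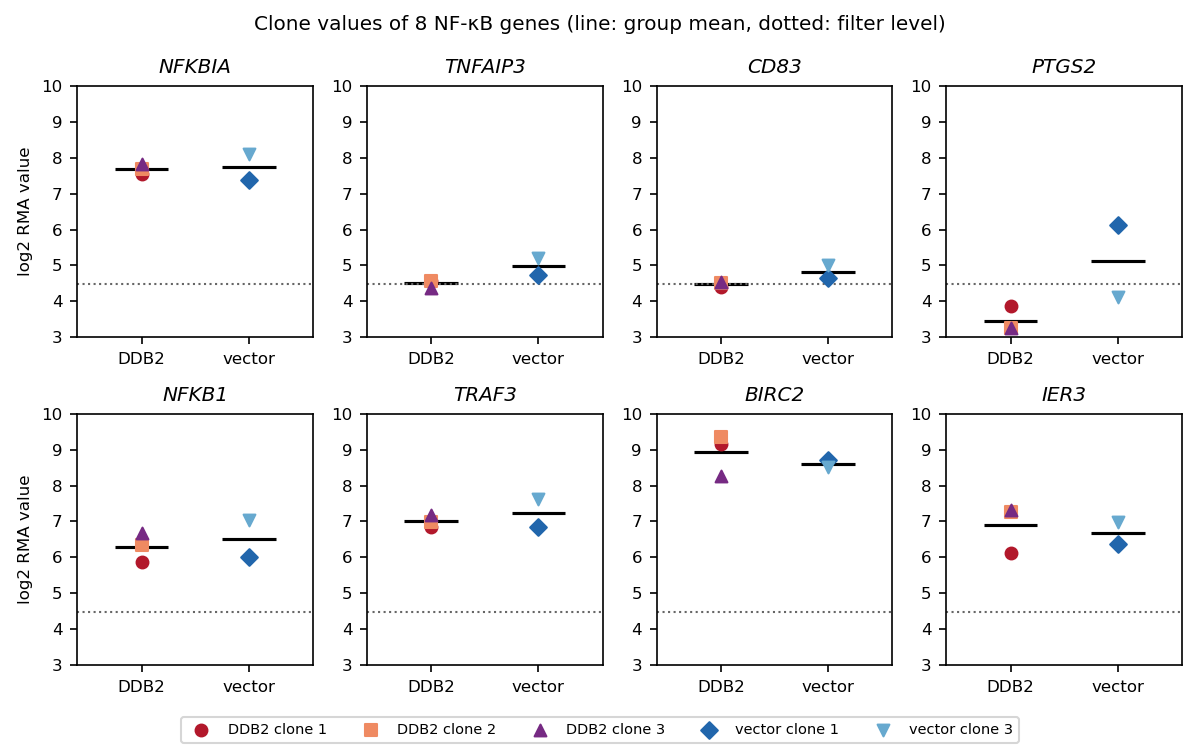
Log2 RMA values of 8 genes in DDB2 clones (left) and vector clones (right), with group means as lines and the filter level dotted. The DDB2 clones lie between the vector clones for NFKBIA and TRAF3, below both for TNFAIP3, CD83 and PTGS2, and on both sides of the vector clones for BIRC2 and IER3.

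Of the surface proteins, CD83, a marker of mature dendritic cells that NF-κB induces, had values of 4.41, 4.50 and 4.55 in DDB2 clones 1, 2 and 3, against 4.65 and 5.00 in vector clones 1 and 3. All DDB2 clones were below both vector clones, and the log2 fold change was -0.34 (SE 0.140, 95% confidence interval -0.71 to 0.03). It was -0.16 without vector clone 3 and -0.52 without vector clone 1. ICAM1, an adhesion molecule for leukocytes, had 4.79, 4.88 and 4.88 in DDB2 clones, against 4.95 in both vector clones. The groups did not overlap, but the log2 fold change was only -0.11 (SE 0.0878).

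Most of the secreted products of the pathway gave no signal above the filter level in any clone. CXCL8, the neutrophil chemokine interleukin-8, ranged from 2.40 to 2.56 in DDB2 clones and from 2.41 to 2.49 in vector clones. IL6, the cytokine interleukin-6, had 3.46 to 3.48 in DDB2 clones and 3.52 to 3.59 in vector clones, without overlap but under the filter level. CXCL1, CXCL2 and CXCL3, neutrophil chemokines of 1 cluster whose sequences are alike enough that their probe sets may share signal, stayed between 2.77 and 4.03 over all clones. Of these, CXCL2 did not overlap, at 3.93 in every DDB2 clone against 4.03 and 3.98 in vector clones 1 and 3. The shares without overlap given above cover tested genes only, so none stands beside genes under the filter level. IL1A and IL1B, the genes of interleukin-1α and interleukin-1β, lay between 2.17 and 3.76. CCL20, a chemokine for CCR6-bearing cells, had 1.81, 1.84 and 1.93 in DDB2 clones, against 2.25 and 2.11 in vector clones. These did not overlap, at a difference of -0.32 near the bottom of the scale, where the table starts at 0.836.

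CCL2, the monocyte chemokine, was the only one of 6 chemokines that passed the filter. It had 4.13, 5.07 and 4.73 in DDB2 clones 1, 2 and 3, against 4.27 and 4.41 in vector clones 1 and 3. Only DDB2 clones 2 and 3 exceeded the filter level, while DDB2 clone 1 was the lowest of the 5. Its log2 fold change was 0.30 (SE 0.298), 0.56 without DDB2 clone 1 and 0.23 without vector clone 1. It was 0.085 with the title numbers as a replicate block, in which DDB2 clone 2 has no partner and does not enter the difference. CCL2 was tested only through DDB2 clones 2 and 3, where it was high, and fell under the filter without either of them.

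PTGS2, which encodes the prostaglandin synthase COX-2, had the widest range of the 34 genes. Its values were 3.86, 3.25 and 3.25 in DDB2 clones 1, 2 and 3, against 6.14 and 4.13 in vector clones 1 and 3. Vector clone 1 alone exceeded the filter level, so that PTGS2 was not tested with the other genes, and vector clone 3 was nearer to the DDB2 mean of 3.45 (0.68 above it) than to vector clone 1 (2.01 below it). The difference of the means was -1.68. With no filter, PTGS2 passed both thresholds (95% confidence interval -3.30 to -0.07, adjusted p = 1 from limma). It no longer did without vector clone 1 (-0.68) or without DDB2 clone 1, 2 or 3 (-1.89, -1.58 and -1.58). Without vector clone 3 it was past both thresholds (-2.69), but with either vector clone left out the single vector array has no spread of its own.

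Across the clones, vector clone 3 held the highest value of the 5 for 8 of the 25 tested genes, while 27.3% of all tested genes had their highest value there. DDB2 clones 1 and 3 each held the lowest value for 9 of the 25, where 23.0% and 21.6% of all genes had theirs. Of the tested genes, 11 had a κB match in a promoter window and 9 had a window without one. The median log2 fold change was -0.13 over the genes with a match, from -0.48 to 0.16, and -0.04 over the genes without a match, from -0.22 to 0.32.

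Further genes of the pathway, grouped in lists by role, gave no gene past both thresholds. Of 26 receptors and adaptors upstream of IKK, 18 were tested, and none passed in either direction, with a median log2 fold change of -0.03. Values ran from -1.66 for TLR3, the receptor for double-stranded RNA, to 0.80 for TNFRSF12A, the TWEAK receptor, both named here after their values were seen. TLR3 had 5.36, 5.07 and 3.96 in DDB2 clones 1, 2 and 3, against 7.36 and 5.56 in vector clones 1 and 3. Its groups did not overlap and its clones varied by over 1 within each group (SE 0.698). Of 18 modulators, 16 were tested and none passed, with a median of -0.0012 and a range from -0.36 to 0.34. Of 26 further NF-κB target genes, 13 were tested and none passed, with a median of -0.11. GADD45B, a stress-induced gene that restrains JNK signaling, was the 1 gene of these lists with an unadjusted P under 0.05 (adjusted p = 0.999 from limma). It had 8.03, 7.53 and 7.81 in DDB2 clones, against 7.31 and 7.37 in vector clones, a log2 fold change of 0.45 (SE 0.170). Every DDB2 clone was above both vector clones for GADD45B, listed as a further NF-κB target, as in 5.93% of all tested genes. An unadjusted P under 0.05 was found in 2.92% of all tested genes, so 1 such gene is not read as a result about these lists. In the list of further target genes 4 of 13 lay below without overlap (30.8%) and 1 above (7.69%), in that of receptors and adaptors 3 of 18 below (16.7%) and none above, and in that of modulators none below and 3 of 16 above (18.8%), beside the 12.5% and 5.93% of all genes given above.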

How the data were processed

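Total RNA of 3 DDB2 clones and 2 vector clones was hybridized to the GeneChip Human Transcriptome Array 2.0, 1 array per clone. Background correction, normalization and RMA summary were done by the authors in the Affymetrix console. The deposited values are log2, as judged from their range. Of 70523 entries, 2995 control entries were left out, and 34141 of 67528 transcript clusters exceeded 4.48 on at least 2 arrays and were kept. A probe set had 1 gene symbol in 23781 cases, several in 1543 and none in 42204, and names follow the platform annotation. DDB2 minus vector was fitted to every kept set by lmFit and eBayes (limma 3.58.1, R 4.3.3), with Benjamini-Hochberg adjustment over all of them. P-values set the difference between the groups against the spread between the clones within them. In the main fit the variance of each probe set was shrunk toward that of all kept sets. Precision is limited by the number of clones. Clone values are given for NFKBIA, for genes with P under 0.05, for genes without overlap and a difference over 0.3, for the 5 genes with the widest range, and for others described by role. The genes and lists were chosen with earlier results of these data known. Promoter windows are from RefSeq, and motif searches and figures used Python 3.11.15, pandas 2.3.3 and matplotlib 3.10.9. The code was tested on simulated data. Alternatives were other filter levels or none, quantile normalization, centring, other variance models, replicate blocks, averaging over all probe sets of a gene, other thresholds, and each array left out.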

Additional observations from a re-analysis of the deposited data

How the results depend on the processing

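None of the 25 tested genes passed both thresholds in any normalization, variance model, block or left-out array (24 tested without DDB2 clone 2 or 3, where CCL2 fell under the filter), nor with a fold change over 1.5 in place of 2, with P under 0.01, or with an adjusted p alone (0 in each), and 1, PTGS2, did with no filter and 1, again PTGS2, with a 25th percentile filter, since these admit it. The count without overlap, 6, was 10 with no filter (34 genes tested) and 9 with a 25th percentile filter (30 genes). It was 1 with a 75th percentile filter (13 genes), 7 after quantile normalization, and 6 to 12 with an array left out, where fewer clones can overlap. The shares over all genes given above hold for the main settings only, so these counts are not read as a result about the genes. The median of -0.06 was -0.0053 with a 75th percentile filter, -0.078 after quantile normalization, -0.12 with a replicate block by source names and -0.12 to -0.018 with an array left out. The log2 fold change of DDB2 was 1.5 to 2.08, and that of NFKBIA -0.42 to 0.29, over the left-out arrays. Of 25 other genes, PTGS2 included, 14 kept their sign under the alternatives that gave them a value. Of these 14 only IKBKB and BIRC2 passed the 75th percentile filter, CCL2 had no value without DDB2 clone 2 or 3, and the sign of PTGS2 was followed only with no filter, also with each array left out. Over the left-out arrays the ranges were -0.010 to 0.43 for NFKBIB, -0.29 to 0.46 for NFKBIZ, -0.18 to 0.23 for RELA, -0.20 to 0.25 for REL, -0.13 to 0.087 for RELB, -0.75 to 0.29 for NFKB1, -0.33 to 0.059 for NFKB2, -0.20 to 0.14 for CHUK, -0.15 to 0.37 for MAP3K14, -0.61 to 0.16 for TRAF3 and -0.090 to 0.61 for IER3. RELA was 0.0053 with centred arrays. With the replicate block by source names RELA was 0.23, RELB 0.087, CHUK 0.14 and MAP3K14 -0.12. DDB2 clone 3 has no vector clone of its number there and does not enter the difference. These are thus the values without DDB2 clone 3. With the replicate block by title numbers, where DDB2 clone 2 has no partner, NFKBIA was -0.06, its value without DDB2 clone 2. The deviations from the group means correlated at 0.13 and 0.342 for the 2 pairs by title. Those by source names correlated at 0.13 and -0.255. With 2 pairs the numbers are not shown to pair the clones. The cause of the other shifts was not tested. The genes with an unadjusted P under 0.05 changed too: TNFAIP3 was the only one, and it was not among them after quantile normalization, centring, without shrinkage, with either block, or without any 1 array other than vector clone 1. Others had one instead or as well: IKBKB without shrinkage, BIRC2 and NFKBIB with the block by source names, CD83 and TRAF3 without vector clone 1, BCL3 and CCL2 without DDB2 clone 1, BIRC2, NFKBIB and TNFAIP8 without DDB2 clone 3, CCL20 and PTGS2 with no filter, and PTGS2 with a 25th percentile filter. An arm left with 1 array is assumed to vary like the other. Removing the filter with each array left out in turn, for PTGS2, was chosen after the data were seen, and gave -2.69 to -0.68.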
